A study of Mus musculus with 8 samples.

Results

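Expression of 8 genes of mitochondrial calcium transport was examined in cultured B16F10 cells, a mouse melanoma line. The genes were *Mcu*, *Mcub*, *Micu2*, *Micu3*, *Smdt1* and *Mcur1* of the uniporter complex, and *Letm1* and *Slc8b1*, which encode inner membrane exchangers. They were chosen by symbol, and each matched 1 of the 55414 genes in the deposited table. The 8 libraries formed 4 groups of 2, all kept for 24 h in their oxygen concentration: WT and CypD KO cells at 21% oxygen, and Control and CypD OE cells at 1% oxygen. CypD KO cells carry a *Ppif* knockout made with CRISPR/Cas9 and were selected with puromycin. Control and CypD OE cells are B16F10 lines that carry the empty pcDNA plasmid or pcDNA with *Ppif*, and both were selected as G418-resistant clones. How many clones each line represents is not stated in the sources used here, nor whether the 2 libraries of a group came from separate cultures, so the p-values below measure the spread between these libraries, which may be technical. WT cells carry no plasmid, so 1% oxygen and the vector line cannot be told apart in a comparison of Control with WT cells. CypD KO cells were transfected and selected, and no such step is stated for WT cells. Loss of *Ppif*, this handling and differences between clones therefore cannot be told apart in CypD KO against WT.

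Calcium enters the mitochondrial matrix through the uniporter, a channel in the inner membrane driven by the membrane potential. MCU forms the pore, EMRE, the product of *Smdt1*, holds the pore to its gatekeepers, and MICU2 and MICU3 belong to the gatekeepers that sense calcium on the outer side and set when the pore opens. MCUB is a paralog of MCU that enters the pore and lowers its conductance. Calcium leaves the matrix mainly through the sodium/calcium exchanger NCLX, the product of *Slc8b1*, and CypD, the product of *Ppif*, sensitizes the permeability transition pore, a further route of release. The study followed mitochondrial calcium in cells with altered CypD, and the question here is which transcripts of this machinery differed between its groups.

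The values are TPM, a relative abundance corrected for transcript length whose total is equal across libraries, so levels of different genes can be compared on it. Between 17942 and 19692 genes were above 0 TPM per library. The CypD KO libraries had the most, at 19692 and 19456, and the other libraries had 17942 to 18335. TPM holds no read total, so depth was estimated from the steps between low values: 1 fragment on 1000 effective bases was worth 0.0825 to 0.099 TPM. The 2 libraries of a group correlated across genes with a Pearson r of 0.983 to 0.985, genes not being independent replicates. All 7 melanocyte markers, *Tyrp1*, *Dct*, *Pmel* and *Mlana* among them, were above 1 TPM in every library, and the epithelial markers *Epcam*, *Krt8* and *Krt14* were listed at 0 in all of them. The summed melanocyte markers reached 15670 to 15750 TPM in WT, 12430 to 12590 TPM in CypD KO, 20450 to 20980 TPM in Control and 13590 to 13760 TPM in CypD OE. The 4 genes named make up most of this sum. *Tyr*, which encodes tyrosinase, went the other way, with 37.4 and 41.3 TPM in WT and 167 and 147 TPM in CypD KO, and *Mitf* had 277 and 281 TPM in WT and 280 and 265 TPM in CypD KO.

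*Ppif*, the targeted gene (ENSMUSG00000021868), had 50.7 and 49.99 TPM in the WT libraries and 10.4 and 12.1 TPM in the CypD KO libraries. Control libraries held 44.6 and 42.3 TPM of it, and those labelled CypD OE 50.3 and 49.3 TPM. The lower level in CypD KO passed the test (log2 fold change -2.07, standard error (SE) 0.07 and adjusted p = 3.81e-06 by limma), and the small difference between CypD OE and Control did not (log2 fold change 0.19, SE 0.07 and adjusted p = 0.0794 by limma). Directions in the second comparison therefore rest on the library label.

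**Figure D1:**
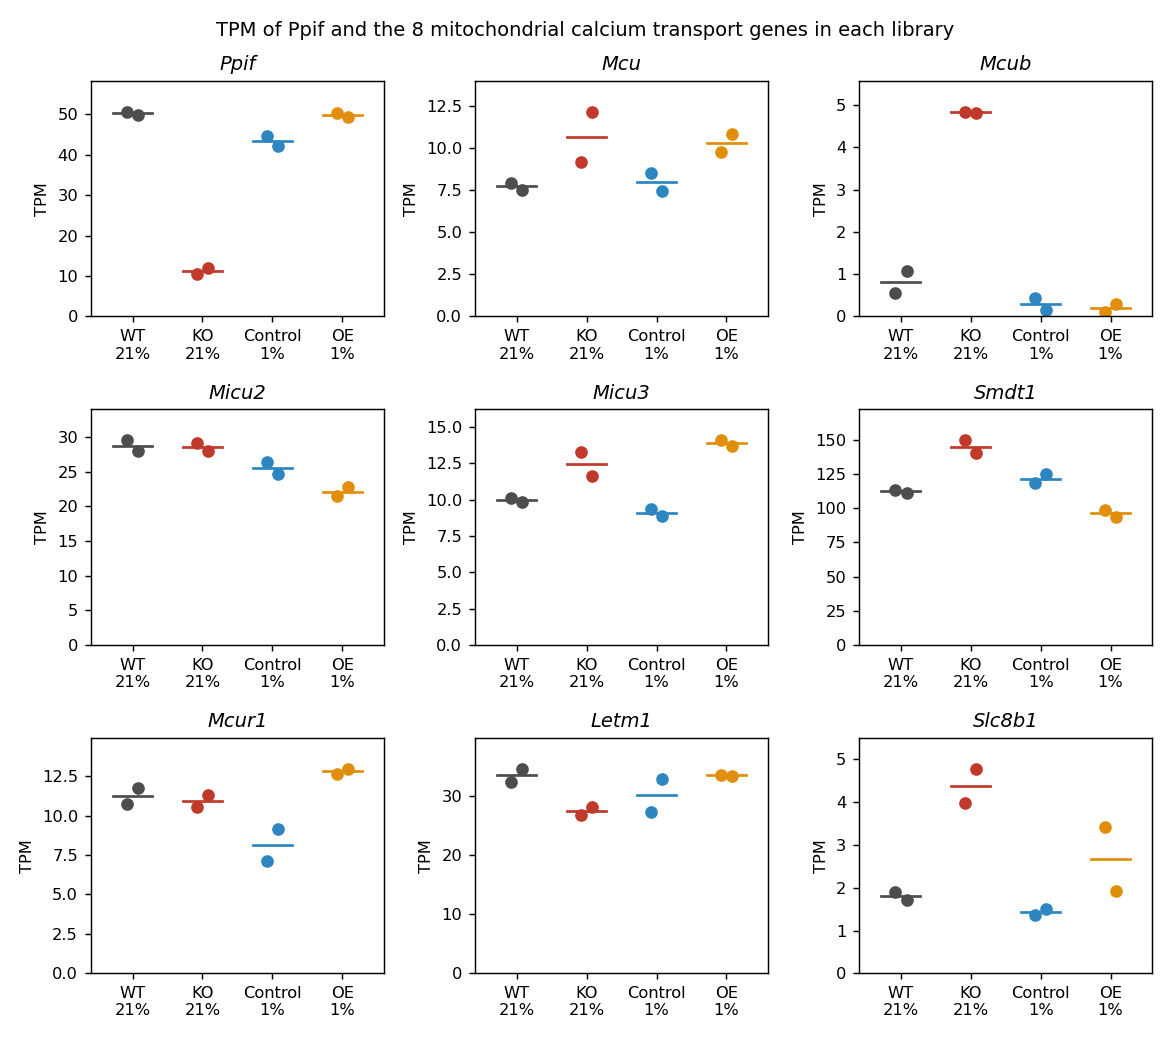
TPM (y axis, linear, from 0) of *Ppif* and the 8 calcium transport genes by group and oxygen concentration (x axis); each point is 1 library and each line the mean of 2. *Mcub* stands at 4.84 and 4.82 TPM in CypD KO and at 1.08 TPM or less in the other 6 libraries, whereas *Micu2* is at 29.2 and 27.9 TPM in CypD KO, within the WT range.

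CypD KO cells had more *Mcub* and *Slc8b1* transcript than WT cells, by 5.89-fold and 2.43-fold in mean TPM, and 1.29-fold more *Smdt1*. *Mcu* and *Micu3* were also higher and *Letm1* lower, each by less than 1.4-fold, while *Micu2* and *Mcur1* did not pass the test. In all, 5 of the 8 genes were higher and 1 was lower at a limma adjusted p under 0.05, against 30.1% higher and 18.4% lower among the 13526 genes tested. *Mcub* entered the test, which asked for at least 1 TPM in at least 2 libraries, through its CypD KO libraries and 1 WT library. Over the 8 genes the log2 fold change had a median of 0.33, against 0.09 over all genes tested. After rescaling by median-of-ratios size factors, with which 3204 genes were higher and 3481 lower in place of 4066 and 2486, 3 of the 8 were higher (*Mcub*, *Smdt1* and *Slc8b1*) and 1 lower. In bulk RNA, more cells expressing a gene and more RNA per cell cannot be told apart.

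*Mcub* (ENSMUSG00000027994; chromosome 3 of GRCm39, 129707425 to 129763869, minus strand) was low outside the knockout. WT libraries held 0.56 and 1.08 TPM, CypD KO libraries 4.84 and 4.82 TPM, Control libraries 0.43 and 0.16 TPM, and those labelled CypD OE 0.1 and 0.29 TPM. Both CypD KO libraries were above all other libraries. On its main transcript, *Mcub*-201, these TPM correspond to approximately 14.3 and 25.4 fragments in WT, 130 and 121 in CypD KO, and 2.7 to 10 in the 4 libraries at 1% oxygen. The log2 fold change of CypD KO against WT was 1.69 (SE 0.21 and adjusted p = 7.23e-04 by limma), a scale with 1 TPM added that understates the change of a gene at this level, and was 2.48 with 0.1 TPM added. Its last exon overlaps an annotated exon of *Casp6*, which encodes a caspase on the opposite strand, and whether reads were counted by strand is not given in the sources used here. *Casp6* was at 15.7 and 13.7 TPM in the WT libraries versus 13.9 and 14.4 TPM in CypD KO. Markers of other cell types also differed between CypD KO and WT, and their part in the *Mcub* result was not tested. Of 4 leukocyte markers, *Cd3e* was listed at 0 in all libraries, *Ptprc*, which all leukocytes express, at 0 to 0.02 TPM, and *Itgam* at 0 to 0.06 TPM. *Cd68*, which encodes a lysosomal protein, was at 3.75 and 3.45 TPM in the WT libraries versus 21.9 and 23.3 TPM in CypD KO, so the summed level of the list was 3.45 to 3.75 TPM in WT, 21.9 to 23.4 TPM in CypD KO, 4.2 to 4.81 TPM in Control and 1.13 to 1.91 TPM in CypD OE. The 5 fibroblast markers, of which *Dcn* was at 0 in all libraries, summed to 15.4 to 17.7 TPM in WT, 34.0 to 36.9 TPM in CypD KO, 19.0 to 21.0 TPM in Control and 9.21 to 11.3 TPM in CypD OE. The larger sum in CypD KO came from *Postn*, at 8.04 and 8.07 TPM in WT and 34.8 and 31.2 TPM in CypD KO, whereas *Col1a2* had 9.03 and 6.87 TPM in WT and 1.09 and 2.17 TPM in CypD KO.

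*Slc8b1* (ENSMUSG00000032754; chromosome 5, 120649173 to 120672102, plus strand), the gene of the calcium exporter NCLX, was at 1.89 and 1.71 TPM in the WT libraries versus 3.97 and 4.78 TPM in CypD KO. The groups did not overlap, and the log2 fold change was 0.94 (SE 0.21 and adjusted p = 0.0101 by limma). Without the second CypD KO library, it was 0.83 and the limma adjusted p 0.0631. *Slc8b1* is a low transcript, with approximately 58.3 and 48.4 fragments in WT and 128 and 144 in CypD KO.

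*Smdt1* (ENSMUSG00000022452; chromosome 15, 82223160 to 82235678, plus strand) was the most abundant of the 8 genes in every group. Its level was 113 and 111 TPM in WT and 150 and 140 TPM in CypD KO, with a log2 fold change of 0.37 (SE 0.05 and adjusted p = 0.00114 by limma). Some exons annotated for *Smdt1* overlap those of *Ndufa6*, a complex I subunit gene on the opposite strand, which was at 136 and 122 TPM in the WT libraries versus 179 and 187 TPM in CypD KO. For both genes, the CypD KO libraries were above the WT libraries, and reads of one cannot be told from reads of the other if strand was not used. *Pheta2*, which overlaps *Smdt1* on the same strand, was at 0 to 0.15 TPM in all libraries.

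The 250 bases upstream of the start of the canonical transcript are shown for these 3 genes, since their higher level in CypD KO passed the test in every fit in which they were tested, apart from the one without the library named for *Slc8b1*. Bases are GRCm39, read 5′ to 3′ on the strand of the gene, and capitals mark ACGTG or GCGTG, the core letters of elements that hypoxia-inducible factors bind, on either strand. The windows are chr3:129763856-129764105 for *Mcub*, chr15:82229861-82230110 for *Smdt1* and chr5:120648923-120649172 for *Slc8b1*. The one of *Smdt1* lies inside the span of the gene, since other annotated transcripts begin farther upstream.
Mcub: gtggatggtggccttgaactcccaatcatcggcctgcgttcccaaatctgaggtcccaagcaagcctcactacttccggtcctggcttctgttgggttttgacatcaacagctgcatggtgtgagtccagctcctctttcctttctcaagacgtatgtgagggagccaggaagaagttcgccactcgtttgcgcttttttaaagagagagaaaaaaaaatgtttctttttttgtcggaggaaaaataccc
Smdt1: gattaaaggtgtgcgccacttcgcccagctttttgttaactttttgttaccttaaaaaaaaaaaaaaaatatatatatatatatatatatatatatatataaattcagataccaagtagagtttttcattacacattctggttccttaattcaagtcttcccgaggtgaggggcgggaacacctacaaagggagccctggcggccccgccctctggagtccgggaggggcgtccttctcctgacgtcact
Slc8b1: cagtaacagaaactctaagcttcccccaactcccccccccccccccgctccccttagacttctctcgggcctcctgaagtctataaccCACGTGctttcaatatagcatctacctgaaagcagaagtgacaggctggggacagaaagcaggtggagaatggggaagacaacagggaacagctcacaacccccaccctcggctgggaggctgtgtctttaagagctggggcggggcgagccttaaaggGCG

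These letters occur nowhere in the bases shown for *Mcub* and *Smdt1*. In *Slc8b1* they occur on both strands of 1 palindrome, at positions -162 and -161 from the start, and once across the start, at position -3. In the window of 300 bases that adds the 50 bases after the start, *Slc8b1* held a further match at position 29 and *Smdt1* 1 at position 43. In that window, 7 of the 8 genes held at least 1 match, *Mcub* being the exception, whereas 48.0% of 21757 annotated protein-coding promoters did. That share also covers genes that did not enter the test. None was computed for the genes tested or for promoters of similar G and C content. G and C made up 48.0% of the bases shown for *Mcub* and 57.6% of those for *Slc8b1*. A match of 5 letters is a description and does not show that a factor binds there.

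*Mcu* (ENSMUSG00000009647; chromosome 10, 59282806 to 59452522, minus strand), which encodes the pore subunit, was at 7.97 and 7.52 TPM in the WT libraries versus 9.19 and 12.2 TPM in CypD KO. Both CypD KO libraries were above WT, but they differed from each other by more than the lower one differed from WT. The log2 fold change of 0.41 (standard error 0.14) had a limma adjusted p of 0.0494, and it was under 0.05 in 4 of 16 fits. Its limma adjusted p was 0.0671 with the replicate number as a block and 0.131 with rescaled TPM. Without the second CypD KO library the log2 fold change was 0.22 (limma adjusted p = 0.235), and without 1 WT library or 1 library at 1% oxygen the limma adjusted p was 0.0608 to 0.163. *Mcur1* (ENSMUSG00000021371; chromosome 13, 43691869 to 43713738, minus strand), whose product is a regulator of the uniporter, was at 10.8 and 11.7 TPM in the WT libraries versus 10.6 and 11.3 TPM in CypD KO. Its groups overlapped, and the 95% interval of its log2 fold change ran from -0.32 to 0.25 (limma adjusted p = 0.818).

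The 2 gatekeeper genes differed little in the knockout. *Micu2* (ENSMUSG00000021973; chromosome 14, 58153706 to 58236767, minus strand) was at 29.5 and 27.9 TPM in the WT libraries versus 29.2 and 27.9 TPM in CypD KO, with a 95% interval of the log2 fold change from -0.16 to 0.15 (limma adjusted p = 0.935). *Micu3* (ENSMUSG00000039478; chromosome 8, 40760499 to 40839367, plus strand), a paralog best known from neurons, was at 10.1 and 9.87 TPM in the WT libraries versus 13.3 and 11.7 TPM in CypD KO. The log2 fold change came to 0.29 (SE 0.09 and adjusted p = 0.0308 by limma), or 0.18 after rescaling (limma adjusted p = 0.116). Without the first CypD KO library it was 0.20 (limma adjusted p = 0.162), and without the first or the second WT library the limma adjusted p was 0.0801 or 0.109.

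*Letm1* (ENSMUSG00000005299; chromosome 5, 33897011 to 33940209, minus strand), which encodes a cation/proton exchange protein of the inner membrane, was the gene that was lower in CypD KO. It was at 32.4 and 34.7 TPM in the WT libraries versus 26.8 and 28.1 TPM in CypD KO, with a log2 fold change of -0.28 (SE 0.09 and adjusted p = 0.0398 by limma). Its adjusted p was above 0.05 in 8 of 16 fits, and leaving out either library of WT or of CypD KO gave limma adjusted p values of 0.0688 to 0.164, and leaving out either CypD OE library 0.0613 and 0.0611. Its paralog *Letm2* went the other way, from 2.85 and 2.44 TPM in WT to 7.37 and 8.26 TPM in CypD KO (log2 fold change 1.27, SE 0.14 and adjusted p = 4.49e-04 by limma).

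**Figure D2:**
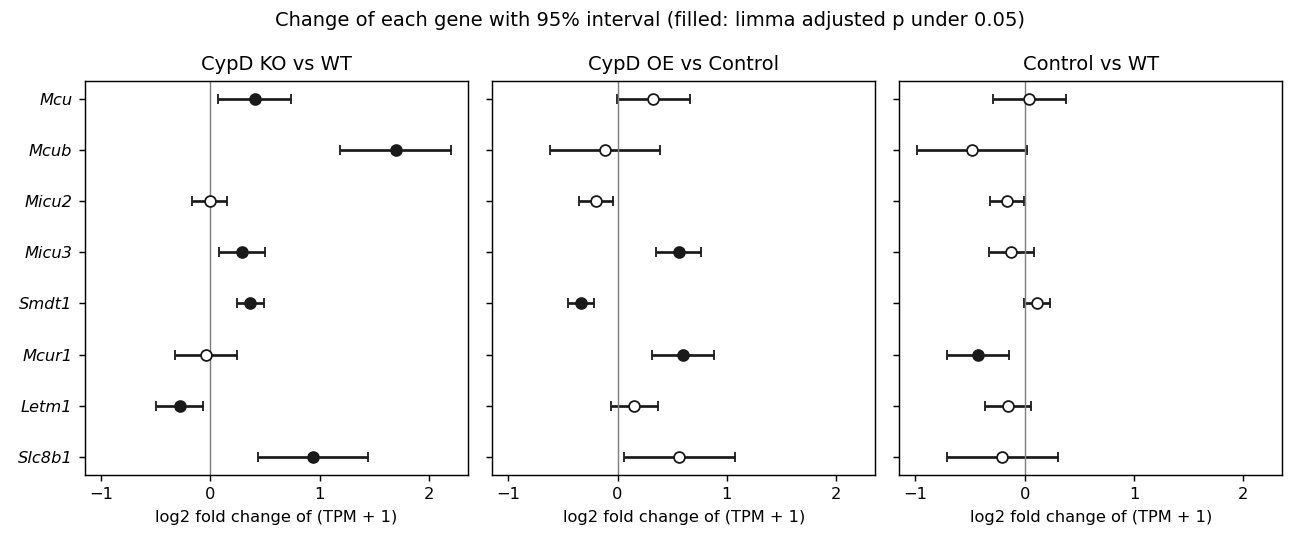
Log2 fold change of TPM + 1 (x axis) of the 8 genes (y axis) in 3 comparisons, with 95% intervals from limma; filled points have an adjusted p under 0.05. *Mcub* lies at 1.69 in CypD KO against WT, *Smdt1* at 0.37 there and at -0.34 in CypD OE against Control, and in Control against WT the only filled point is *Mcur1* at -0.43.

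Between the libraries labelled CypD OE and Control, both at 1% oxygen, *Mcur1* and *Micu3* were higher and *Smdt1* was lower. They were 2 of 8 genes higher, where 19.0% of the 13526 genes tested were higher, and 1 of 8 lower, where 18.3% were lower. The median log2 fold change was 0.24 for the 8 genes and 0.002 for all genes tested. *Mcur1* was at 7.14 and 9.15 TPM in the Control libraries versus 12.6 and 13.0 TPM in CypD OE, a log2 fold change of 0.60 (SE 0.12 and adjusted p = 0.00775 by limma). *Micu3* went from 9.38 and 8.85 TPM to 14.1 and 13.7 TPM, a log2 fold change of 0.56 (SE 0.09 and adjusted p = 0.00298 by limma). Neither gene overlapped between these groups, and both stayed past the threshold in all 16 fits.

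*Smdt1* was at 118 and 125 TPM in the Control libraries versus 98.8 and 93.5 TPM in CypD OE. Its log2 fold change was -0.34 (SE 0.05 and adjusted p = 0.00255 by limma), the opposite direction to that in CypD KO, and it stayed past the threshold in 16 of 16 fits. *Ndufa6*, which overlaps it, was at 156 and 161 TPM in the Control libraries versus 117 and 108 TPM in CypD OE, again in the same direction. *Micu2* was at 26.4 and 24.7 TPM in the Control libraries versus 21.4 and 22.8 TPM in CypD OE, with no overlap, but its log2 fold change of -0.20 was just outside the threshold (SE 0.07 and adjusted p = 0.0527 by limma).

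The remaining 4 genes did not pass in that comparison. *Mcu* was at 8.53 and 7.49 TPM in the Control libraries versus 9.77 and 10.8 TPM in CypD OE (log2 fold change 0.33, 95% interval -0.01 to 0.66, limma adjusted p = 0.112). *Slc8b1* was at 1.36 and 1.5 TPM in the Control libraries versus 3.42 and 1.92 TPM in CypD OE, where 1 library was well above the other, and its log2 fold change was 0.57 (SE 0.21 and adjusted p = 0.0789 by limma). Without the second CypD OE library it was 0.86 (limma adjusted p = 0.0203). *Letm1* was at 27.4 and 33.0 TPM in the Control libraries versus 33.7 and 33.4 TPM in CypD OE (log2 fold change 0.15, limma adjusted p = 0.229), and without the second Control library its log2 fold change was 0.28 (limma adjusted p = 0.0377). *Mcub* stood at or below 10 fragments in each of these 4 libraries, and a difference was not detectable at this depth (log2 fold change -0.11, limma adjusted p = 0.722).

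In Control cells at 1% oxygen against WT cells at 21% oxygen, none of the 8 was higher and 1, *Mcur1*, was lower at a limma adjusted p under 0.05, against 12.1% higher and 12.1% lower among all genes tested. At an unadjusted limma p under 0.05, the count was 0 higher and 2 lower. No share of all genes was computed at that threshold, and the percentages above are at the adjusted one. *Mcur1* went from 10.8 and 11.7 TPM in WT to 7.14 and 9.15 TPM in Control (log2 fold change -0.43, SE 0.12 and adjusted p = 0.0418 by limma). Its adjusted p was under 0.05 in 6 of 16 limma fits. Without the first Control library it was -0.27 (limma adjusted p = 0.152), and without 1 library of WT, CypD KO or CypD OE the limma adjusted p was 0.0616 to 0.162. For *Mcub*, the log2 fold change was -0.48 (95% interval -0.99 to 0.02, limma adjusted p = 0.145), beside 1.69 in CypD KO, and both comparisons share the WT libraries. The 95% interval of *Mcu* ran from -0.29 to 0.38 and that of *Slc8b1* from -0.71 to 0.30.

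The 8 transcript levels were ordered within each group. In WT the order ran from *Smdt1*, at a mean of 112 TPM, through *Letm1* (33.5 TPM), *Micu2* (28.7 TPM), *Mcur1* (11.2 TPM), *Micu3* and *Mcu* (7.75 TPM) to *Slc8b1* (1.80 TPM) and *Mcub* (0.82 TPM), and no neighbours in this order overlapped between libraries. *Micu3* was below *Mcur1* in WT but above it in the means of the other 3 groups, at 12.5 against 10.9 TPM in CypD KO and 13.9 against 12.8 TPM in CypD OE, without overlap in both. In CypD KO, *Mcub*, at a mean of 4.83 TPM, was above *Slc8b1*, at 4.38 TPM, with no overlap, and *Micu2* and *Letm1* overlapped, as did *Mcur1* and *Mcu*. In Control, *Micu3* overlapped with *Mcur1*, and *Mcur1* with *Mcu*. In the libraries labelled CypD OE, no neighbours overlapped.

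A ratio of 2 transcripts within a library does not change with the scaling between libraries, so genes of the complex were also set against *Mcu*. With 2 libraries a group, an exact two-sided permutation test cannot give a p below 0.333, and these ratios are given as values. *Mcub* transcripts per *Mcu* transcript numbered 0.0703 and 0.144 in WT and 0.527 and 0.396 in CypD KO. In Control they were at 0.0504 and 0.0214, and in CypD OE at 0.0102 and 0.0268, so CypD KO stood above every other library. *Smdt1* per *Mcu* was 14.2 and 14.8 in WT, 16.3 and 11.5 in CypD KO, 13.8 and 16.7 in Control, and lowest in CypD OE, at 10.1 and 8.63. For *Micu2*, the ratio was 3.71 in both WT libraries, 3.18 and 2.29 in CypD KO, 3.09 and 3.30 in Control, and 2.19 and 2.11 in CypD OE. This ratio was thus lower in CypD KO than in WT and lower in CypD OE than in Control, without overlap. The lower ratio in CypD KO was not particular to *Micu2*. *Mcur1* per *Mcu* was 1.349 and 1.559 in WT and 1.148 and 0.9261 in CypD KO. *Letm1* per *Mcu* was 4.061 and 4.609 in WT and 2.911 and 2.31 in CypD KO. *Slc8b1* per *Mcu* was higher in CypD KO. *Micu2* itself differed little in TPM between these groups. *Mcu* was higher in CypD KO, passing the threshold in 4 of 16 fits. The ratio of *Micu3* overlapped between WT and CypD KO, at 0.957 to 1.45 over these 4 libraries.

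**Figure D3:**
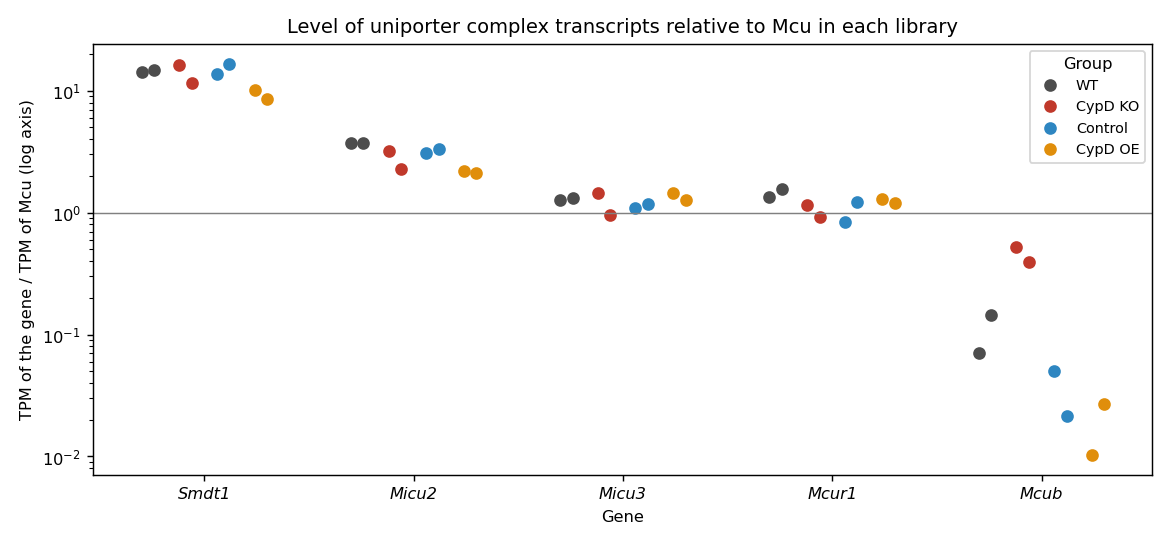
TPM of 5 genes divided by the TPM of *Mcu* in the same library (y axis, log scale); each point is 1 library, coloured by group. *Mcub* per *Mcu* is 0.527 and 0.396 in CypD KO and at most 0.144 elsewhere, and *Smdt1* per *Mcu* is lowest in CypD OE, at 10.1 and 8.63.

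Other genes of calcium handling were followed in 6 lists. Their counts stand against the shares of all genes tested at the same adjusted threshold, and no share was computed at an unadjusted p. The shares were 30.1% higher and 18.4% lower in CypD KO, 19.0% and 18.3% in CypD OE, and 12.1% and 12.1% in Control against WT. The lists are short, and leaving out 1 library moved many of their counts. Calls over all genes tested also fell without any 1 library of a comparison. The shares therefore do not apply to the counts of those fits, and a lower count in such a fit is not a result about its list. Of 11 regulators, paralogs and assembly factors of the uniporter and exchangers, 4 were higher and 4 lower in CypD KO than in WT, with a median log2 fold change of 0.03. Without the second CypD KO library, 2 were lower. Beside *Letm2*, the largest change was that of *Ghitm*, which encodes an inner membrane protein of the TMBIM family linked to calcium/proton exchange. It was at 157 and 148 TPM in the WT libraries versus 245 and 235 TPM in CypD KO (log2 fold change 0.65, SE 0.06 and adjusted p = 1.98e-04 by limma). In CypD OE against Control, 2 of the 11 were higher and 3 lower. Without the second Control library or either CypD OE library 1 was higher, and without either Control library 1 was lower. *Letm2* was at 7.76 and 7.47 TPM in the Control libraries versus 3.09 and 4.14 TPM in CypD OE, with a log2 fold change of -0.91 (limma adjusted p = 0.00308). *Phb2*, which encodes a prohibitin of the inner membrane, was higher, at 348 and 341 TPM in CypD OE against 280 and 292 TPM in Control (log2 fold change 0.27, limma adjusted p = 0.00161). In Control against WT, 2 were higher and 5 lower, with *Letm2* again the largest change, at 1.24 (limma adjusted p = 0.00164). Without any 1 of the 8 libraries, 1 was higher there, and 2 were lower without the first Control library and 3 without the first WT library. *Maip1*, whose product acts in EMRE assembly, was lower there (log2 fold change -0.47, limma adjusted p = 0.00985), but not past 0.05 without the first Control or the first WT library (limma adjusted p = 0.0549 and 0.0542).

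Calcium reaches the uniporter from the endoplasmic reticulum (ER) through inositol trisphosphate receptors at contact sites. Of 18 genes of this route, 14 were tested, and 7 were higher and 0 lower in CypD KO (by limma adjusted p, with 1 lower at an unadjusted p under 0.05 and 3 lower after rescaling). In CypD OE, 4 were higher and 7 lower than in Control. *Itpr2*, a receptor gene, was at 6.13 and 4.76 TPM in WT, 11.3 and 10.4 TPM in CypD KO, 10.4 and 7.92 TPM in Control and 5.73 and 6.09 TPM in CypD OE. It was higher in CypD KO than in WT (log2 fold change 0.88, limma adjusted p = 0.00334) and lower in CypD OE than in Control (log2 fold change -0.54, limma adjusted p = 0.0315), the latter not past 0.05 without the first Control library (limma adjusted p = 0.148) or without either CypD OE library (limma adjusted p = 0.120 and 0.0862). In Control against WT, its log2 fold change was 0.65 (limma adjusted p = 0.0246), and 0.48 without the first Control library or 0.50 without the second WT library (limma adjusted p = 0.109 and 0.110). *Pacs2*, which encodes a sorting protein of ER contact sites, was higher in CypD KO, at 51.6 and 52.7 TPM against 33.2 and 34.1 TPM (log2 fold change 0.62, limma adjusted p = 9.57e-05). *Fundc1*, a mitophagy receptor gene, was lower in CypD OE than in Control (log2 fold change -0.65, limma adjusted p = 3.29e-04) and higher in Control than in WT (log2 fold change 0.42, limma adjusted p = 0.00379). In Control against WT, 6 of the 14 were higher and 2 lower, with 3 higher without the first Control or the first WT library and 2 higher without the second WT library.

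For ER calcium uptake and store-operated entry, 10 of 14 genes were tested, with 3 higher and 4 lower in CypD KO, 1 higher and 4 lower in CypD OE, and 4 higher and 1 lower in Control against WT. In CypD KO, 1 was higher and 2 were lower without the second CypD KO library, and 2 were lower without the second WT library. In CypD OE, 0 were higher by limma without any 1 library of that comparison and 2 without either WT library. Without the first Control or the second WT library, 2 were higher in Control against WT. *Orai3*, which encodes a plasma membrane channel subunit, was at 8.33 and 8.34 TPM in WT, 12.6 and 13.4 TPM in CypD KO, 13.4 and 10.2 TPM in Control, and 7.09 and 6.29 TPM in CypD OE. Its log2 fold change was 0.58 in CypD KO (limma adjusted p = 0.00968), -0.73 in CypD OE (limma adjusted p = 0.00531) and 0.45 in Control (limma adjusted p = 0.0497). The last was above 0.05 in 12 of the other 15 fits, with 0.27 and a limma adjusted p of 0.187 without the first Control library, and the first had a limma adjusted p of 0.0534 without the second CypD KO library. *Saraf*, the gene of an inhibitor of that entry, was higher in CypD KO, at 81.6 and 80.4 TPM against 48.6 and 45.2 TPM (log2 fold change 0.78, limma adjusted p = 2.85e-05). *Calr*, which encodes the ER calcium buffer calreticulin, was lower in CypD OE than in Control (log2 fold change -0.55, limma adjusted p = 1.93e-04) and higher in Control than in WT (log2 fold change 0.27, limma adjusted p = 0.00664). *Calr* was also lower in CypD KO than in WT (log2 fold change -0.33, limma adjusted p = 0.00102). Of 9 genes of calcium export from the cytosol, 2 were tested, and *Atp2b1*, a plasma membrane calcium pump gene, was lower in CypD KO (log2 fold change -0.42, limma adjusted p = 0.00249), with no other call in the 3 comparisons (1 higher in Control against WT at an unadjusted limma p under 0.05). Without the second WT library, 1 was higher in CypD KO and 1 in Control.

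Calcium in the matrix acts on dehydrogenases, and calcium in the cytosol on carriers and a dehydrogenase whose calcium-binding domains face the intermembrane space. Of 13 such genes, 3 were higher and 4 lower in CypD KO, and 2 were lower without the second WT library or without either CypD KO library. *Pdp1*, the calcium-activated phosphatase of pyruvate dehydrogenase, was at 3.01 and 2.92 TPM in the WT libraries versus 7.6 and 8.21 TPM in CypD KO (log2 fold change 1.17, SE 0.10 and adjusted p = 1.47e-04 by limma). *Slc25a24*, a calcium-dependent carrier of adenine nucleotides, was at 15.4 and 15.2 TPM in the WT libraries versus 41.6 and 38.8 TPM in CypD KO (log2 fold change 1.34, SE 0.08 and adjusted p = 3.27e-05 by limma). In CypD OE, 2 of the 13 were higher and 1 lower than in Control, or 1 and 0 without the second CypD OE library, and 0 lower without the second Control library. *Slc25a13*, an aspartate/glutamate carrier, was the largest of these, at 145 and 146 TPM against 87.4 and 94.9 TPM (log2 fold change 0.67, limma adjusted p = 1.23e-04), followed by *Idh3b*, a subunit of isocitrate dehydrogenase (log2 fold change 0.29, limma adjusted p = 0.00862, or 0.0501 without the second CypD OE library). In Control against WT, 0 were higher and 3 lower by limma (0 and 5 at an unadjusted p under 0.05), led by *Idh3a* (log2 fold change -0.40, limma adjusted p = 9.52e-04) and *Slc25a13* (log2 fold change -0.36, limma adjusted p = 0.00319).

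Of 12 genes of general mitochondrial content, such as those of protein import, the respiratory chain and citrate synthase, 2 were higher and 8 lower in CypD KO, with a median log2 fold change of -0.30 against 0.09 over all genes. Without the second WT library or either CypD KO library, 1 was higher. *Hspd1*, a matrix chaperonin gene, had a log2 fold change of -0.96 (limma adjusted p = 8.29e-07) and *Tomm40*, of the outer membrane import channel, one of -0.55 (limma adjusted p = 1.00e-04). *Immt* was 1 of the 2 higher in CypD KO, with a log2 fold change of 0.105 (limma adjusted p = 0.0129). After rescaling, 1 of the 12 was higher. In CypD OE, 3 were higher, among them *Immt* (log2 fold change 0.37, limma adjusted p = 9.64e-05) and *Timm44* (log2 fold change 0.44, limma adjusted p = 0.0186, or 0.0525 and 0.0890 without either CypD OE library), and 2 lower, or 1 lower without the second Control or the second CypD OE library. In Control against WT, 1 was higher (0 by limma without the second Control or the second WT library) and 8 were lower (5 without the second Control library and 4 without the first WT library), among them *Hspd1* (log2 fold change -0.51, limma adjusted p = 1.88e-05) and *Tomm20* (log2 fold change -0.39, limma adjusted p = 0.0259, or 0.0517 to 0.118 without 1 library of either group).

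**Figure D4:**
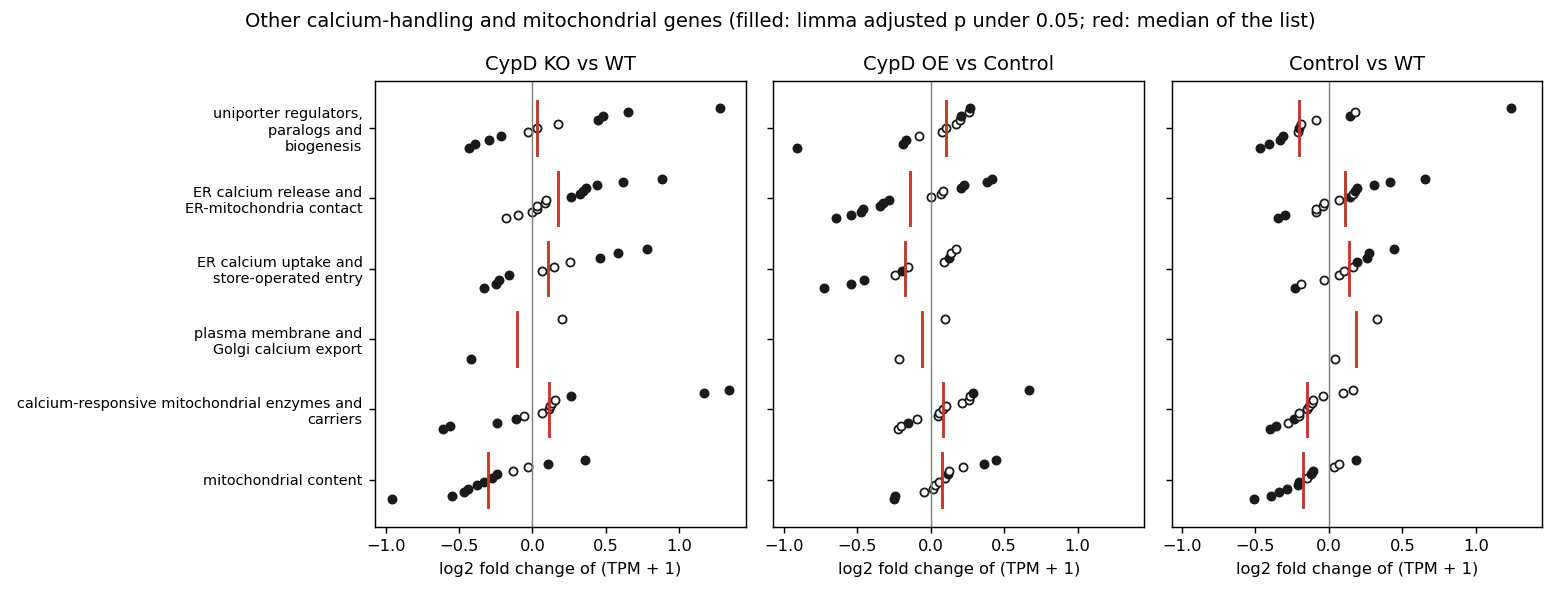
Log2 fold change of TPM + 1 (x axis) of the tested genes of 6 lists (y axis) in 3 comparisons; each point is 1 gene, filled where the limma adjusted p is under 0.05, and red lines are list medians. The mitochondrial content list has its median at -0.30 in CypD KO against WT, and *Slc25a24*, at 1.34, and *Letm2*, at 1.27, lie farthest to the right there.

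For each gene, the 3 tested genes with the most similar profile over the 8 libraries were found by Pearson correlation of log2(TPM + 1), as a description; the libraries fall into 4 groups of 2, so these values mostly compare 4 group levels. They were *Bag3* (0.995), *D630003M21Rik* (0.992) and *Pde5a* (0.989) for *Mcub*, and *Tor4a* (0.997), *Decr1* (0.993) and *Wls* (0.990) for *Smdt1*. For *Slc8b1* they were *Dctn2* (0.990), *Tceal8* (0.987) and *Dlg5* (0.985), and for *Mcu* the mitochondrially encoded *mt-Co2* (0.966), *Golim4* (0.964) and *Pkn3* (0.954). *Micu2* was closest to *Ifrd1* (0.981), *Btbd10* (0.980) and *Bglap2* (0.980), and *Micu3* to *Gm42549* (0.983), *Fam172a* (0.978) and *Rcn2* (0.977). *Mcur1* was closest to *Taf4b* (0.973), *Armcx5* (0.964) and *Usp39* (0.959), and *Letm1* to *Ankrd23* (0.962), *Nsun5* (0.949) and *Gm11585* (0.948).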

How the data were processed

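Ribosomal RNA was depleted and 8 libraries were sequenced from both ends (150 bases). The authors used Cutadapt 3.4, STAR 2.7.8a on GRCm39 and RSEM 1.3.1, and deposited TPM, rounded to 2 decimals; counts were not used here. Groups came from the sample labels. Of each pair of library names, the one with no number was called the first.

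Genes reaching 1 TPM in 2 or more libraries entered a limma 3.58.1 fit (R 4.3.3) of log2(TPM + 1), with 4 group means and eBayes with a trend. Tests were two-sided, and p-values were adjusted by Benjamini-Hochberg over all genes tested, with a threshold of 0.05. The script was tested on simulated data. Depth was estimated from genes with 1 annotated transcript, by a search over fragment lengths and step sizes for those that put low values closest to whole numbers: 83.5% to 86.3% of them lay within 0.15 of one. Fragments of a gene assume its canonical transcript. Coordinates and bases came from GRCm39 with GENCODE M39, which held 54749 of 55414 identifiers and all 8 genes.

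The 8 genes and the lists were chosen with earlier results of these data known. Named from the lists were at most 2 genes per list and comparison, the largest changes past the threshold without overlap of libraries. *Calr* and *Immt* in CypD KO were given in addition. Alternatives were a pseudocount of 0.1, no filter, a filter of 5 TPM, median-of-ratios scaling, a fit of 4 libraries alone, the replicate number as a block, eBayes with no trend, and leaving out each library. They were applied to the lists after the values of the lists had been seen. Some genes of the lists are not reported here, and protein sequences were not used here.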

Additional observations from a re-analysis of the deposited data

How the results depend on the processing

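Of 352 log2 fold changes of the 8 genes in 15 alternative fits, 305 kept their direction and their side of the threshold, 37 were no longer past it, 3 newly passed it and 7 changed sign, all of the last from values that were not past it. In CypD KO against WT, 3 genes were higher, in place of 5, without a filter, with a filter of 5 TPM (where *Mcub* and *Slc8b1* were not tested), after median-of-ratios scaling and with only the 4 libraries of the comparison, and 0 were lower, in place of 1, without a filter and with eBayes without trend. Of all genes tested, 4076 of 24706 were higher in CypD KO without a filter and 3488 of 10473 with a filter of 5 TPM. The count was 3204 of 13526 after scaling and 3859 of 12921 with the 4 libraries alone, beside 4066 of 13526 above. Lower were 2245 of 24706 without a filter and 2287 of 13526 without trend, beside 2486. In CypD OE against Control, 2 of the 8 were lower, in place of 1, with a filter of 5 TPM. There, 2310 of 10473 of all genes were lower, beside 2481 of 13526. In Control against WT, 0 of the 8 were lower, in place of 1, without a filter, with only the 4 libraries of the comparison and with eBayes without trend. Of all genes, 1214 of 24706, 1208 of 12542 and 1365 of 13526 were lower in these fits, beside 1635 of 13526. Leaving out 1 library at a time gave 3 to 4 higher and 0 to 1 lower in CypD KO, 2 to 3 higher and 1 lower in CypD OE, and 0 higher and 0 to 1 lower in Control. The cause was not tested, apart from the fewer genes or libraries that the filter and the smaller fits hold by construction. Without any 1 library of a comparison, fewer of all genes tested were called there too. A lower count in such a fit is therefore not a result about the 8 genes.

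The sign changes arose when 1 library was left out, over which the log2 fold change ranged from -0.042 to 0.124 for *Mcu* in Control against WT, from -0.264 to 0.038 for *Mcub* in CypD OE against Control, and, in CypD KO against WT, from -0.095 to 0.019 for *Mcur1* and from -0.047 to 0.031 for *Micu2*. With a replicate block, 4 genes were higher and 1 lower in CypD KO, 2 and 1 in CypD OE, and 0 and 1 in Control; the call it ended was that of *Mcu* in CypD KO (limma adjusted p = 0.0671). Deviations of same-numbered libraries correlated between -0.03 and 0.11 across genes over the 6 pairs of groups, so the numbers were not taken to pair the libraries. Among genes named from the lists, 432 of 465 values kept direction and call and 33 were no longer past the threshold. *Mcub* at 1% oxygen, at 2.7 to 10 fragments, is limited by depth.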
